A study of Homo sapiens with 16 samples.

Results

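Protein kinases and the genes that act with them in protein phosphorylation made up 1 of the enriched processes in the authors' deposited table for brain metastases of the breast cancer line MDA231. The genes described here are those that the table names under protein phosphorylation, without the genes that it also names under cellular response to DNA damage stimulus, DNA repair, cell division, cell cycle or autophagy, and without ERBB2, GSK3B, TGFB2, TGFBR2 and CCL2. The term named 134 genes, of which 27 were taken out with those rows and 5 by name. The remaining 102 are called members below, and the table names 2646 genes in all. The members were chosen by that enrichment, so their presence in the list is a description and not a finding.

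The libraries came from mouse brains in which human breast cancer cells had grown for 30 days, and were made by Flura-seq, in which RNA newly made by cells that convert 5-fluorocytosine is tagged and then captured with an anti-BrdU antibody. The 16 libraries form 4 groups of 4, namely MDA231 IP (captured RNA), MDA231 input, HCC1954 IP and HCC1954 input. MDA231 is an established triple-negative line and HCC1954 an established ERBB2-positive line, and the labels describe each as a brain-metastatic derivative. The drug dose was 250 mg/kg in every group, brains were collected after 12 hours, and each brain took 2.5 µg of antibody. The labels do not say whether libraries of a group came from separate animals.

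The values analysed are those of the enrichment tables, which hold no level per library, so no gene has a replicate error here and library depth is unknown. The labels and tables do not state whether listed genes were higher or lower in captured RNA than in input, so no direction is given for any member. In RNA of a whole brain, fewer cells of a type and less RNA per cell cannot be told apart. Without levels, the labelled line could not be checked against its markers.

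A protein kinase moves a phosphate group from ATP to a serine, threonine or tyrosine of its substrate, and many kinases are themselves switched on by such a phosphate. Kinases therefore act in cascades, in which a receptor or stress sensor passes a signal through a chain of kinases to transcription factors, translation factors or the cell cycle machinery. Human kinases fall into sequence groups. They include AGC (protein kinases A, G and C), CAMK (calcium and calmodulin related), CMGC (cyclin-dependent, MAP and related kinases), STE (upstream MAP kinase cascade), TK (tyrosine kinases) and TKL (tyrosine kinase-like).

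Of the 456 background genes of protein phosphorylation, 134 (29.4%) were in the MDA231 list, where 21.6% of all background genes were. For this term the authors' deposited table gave a fold of 1.36 with a Benjamini p of 0.0350. This comparison is the one that chose the members, and its p describes a draw of genes rather than the spread between libraries.

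The label was then checked against a list of 541 human kinase genes in 11 groups. Of the 102 members, 76 (74.5%) were in that list and 26 were not. The 76 kinases were 15 of various smaller families, 13 CAMK, 11 CMGC, 9 AGC, 9 TKL, 8 TK, 7 STE and 4 atypical kinases. No lipid kinase and no member of the CK1 or receptor guanylate cyclase groups was among them. The lipid kinase PIK3C3 is in protein phosphorylation but was taken out by the rule with the autophagy genes. Of the 76, TRIB1, TRIB3, PTK7, NRBP1, PAN3 and PIK3R4 are known as pseudokinases, CASK as a kinase with an unusual active site, and FASTK as a mitochondrial RNA-binding protein rather than a kinase. Without these 8, 68 genes of the list remained, some of them, such as COQ8A, kinase-like proteins rather than typical protein kinases.

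The 26 members outside the kinase list held 8 regulatory subunits or cyclins, 5 transcription factors or cofactors, 3 proteins with FAST kinase domains and 10 others. The regulatory subunits were CCNH, CSNK2B, PRKAB1, PRKAB2, PRKAG1, PHKA1, PHKA2 and PIK3R1. RARA, HSF1 and CREB1 are transcription factors, while CTBP1 is a corepressor and MAML1 a Notch coactivator. The others were APP, ATP23, CERT1, EIF2A, FNIP2, FYB1, MMD, MORC3, SNX15 and STK19.

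**Figure D1:**
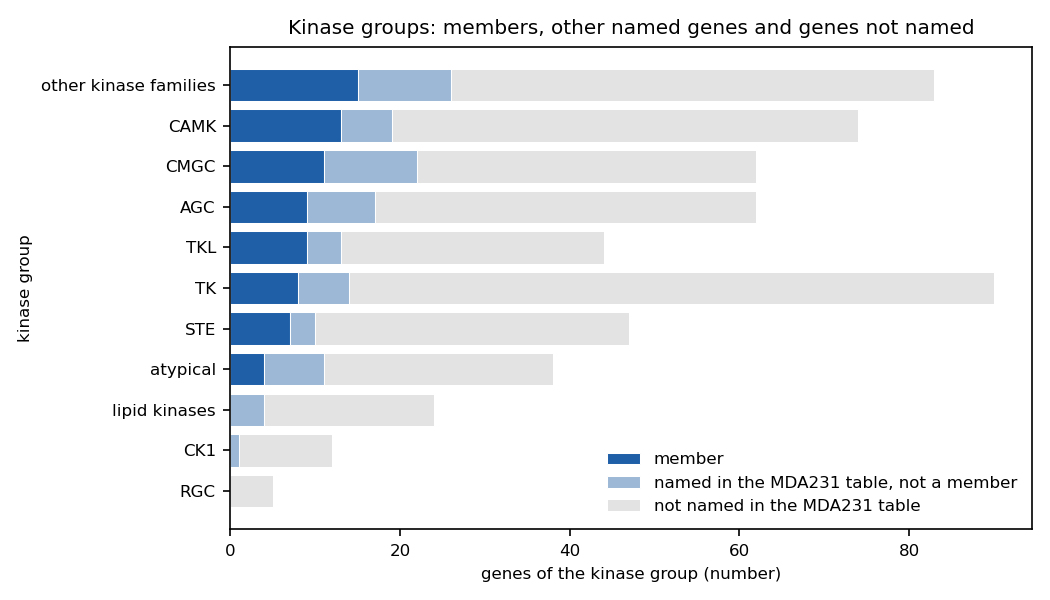
Number of genes (horizontal axis) in each of 11 kinase groups (vertical axis), split into members, genes named elsewhere in the MDA231 table and genes the table does not name. The smaller families hold 15 members and CAMK 13, while the tyrosine kinases hold 8 members of 90 listed genes.

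Across the whole MDA231 table, 137 of the 541 kinase genes were named (25.3%), where 15.8% of background genes were. The kinases sit in the term that chose the members, so nothing is read from that difference. The CMGC group had 22 of 62 genes named (35.5%), the smaller families 26 of 83 (31.3%), TKL 13 of 44 (29.5%) and AGC 17 of 62 (27.4%). CAMK had 19 of 74 named (25.7%), STE 10 of 47 (21.3%) and the tyrosine kinases 14 of 90 (15.6%). A gene that is in the MDA231 list but in none of the 314 terms is not named, so an unnamed kinase may still have been listed. Only 15 of the 314 terms had a Benjamini p under 0.05 in the authors' deposited table. Of the 137, 101 were in protein phosphorylation and 36 were named by other terms alone, among them CDK2, CDK5 and the p38 kinase MAPK14.

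Members were next described by how many of the 314 MDA231 terms name them. The median member was in 3 terms, with a range of 1 to 13, and genes named outside protein phosphorylation were in a median of 2. Of the 314 terms, 119 (37.9%) named at least 1 member. In all, 86 of 102 members (84.3%) were in at least 1 further term, where 60.4% of all named genes were in at least 2 terms. Members were chosen through 1 phosphorylation term, and narrower ones, such as protein autophosphorylation with 25 members, are also listed. The contrasts in median and in share therefore depend on how members were chosen, and nothing is read from them. With further terms limited to a Benjamini p under 0.05, the number of members was 11 (10.8%). That limit leaves 15 of the 314 terms, and 5 of the 15 are rows whose genes the rule took out. The count is therefore lowered by construction, and the same share over all named genes was not counted, so nothing is read from it. Some of those further terms are also about phosphorylation, and 75 members (73.5%) were in a term outside the 16 terms named for phosphorylation, kinases or a kinase cascade. Over all named genes that share was 97.7%, and members differ by construction, since each was chosen through a phosphorylation term. Another 11 members (10.8%) had further terms that were all phosphorylation or cascade terms. The remaining 16 members were in protein phosphorylation alone. They were CASK, FASTK, FASTKD3, FASTKD5, MMD, PAN3, PDIK1L, PHKA1, PHKG2, PSKH1, PTK7, RPS6KB2, STK19, STK35, TBRG4 and TRIO.

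**Figure D2:**
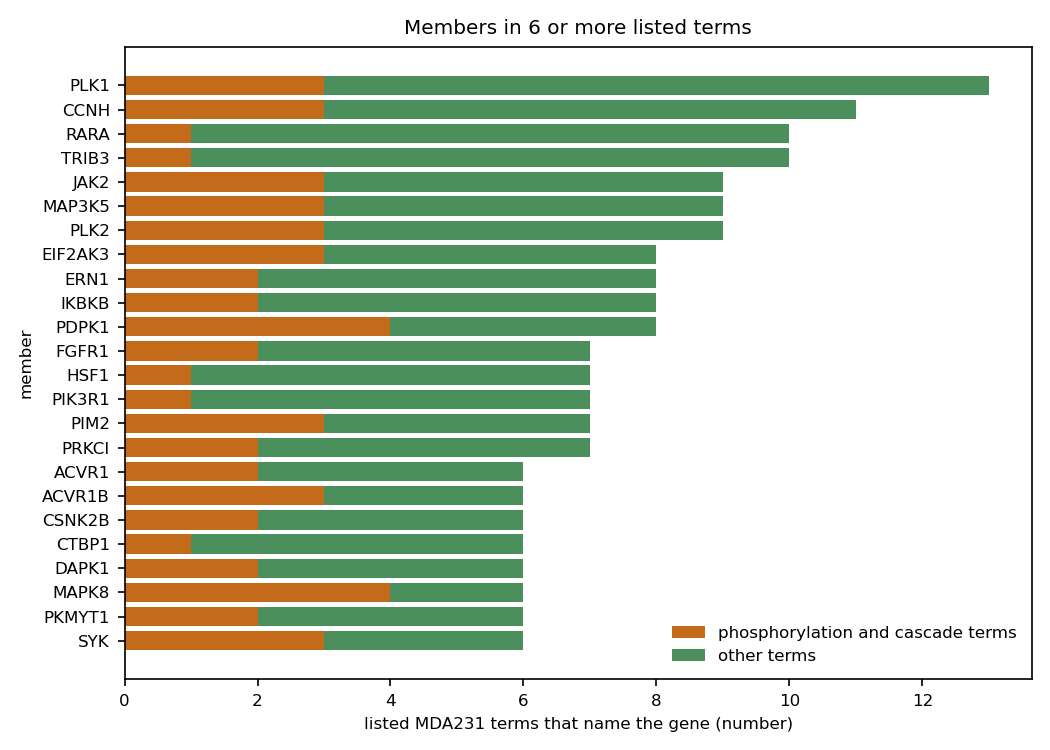
Number of listed MDA231 terms (horizontal axis) that name 24 of the 26 members found in 6 or more terms (vertical axis), split into phosphorylation or cascade terms and other terms. PLK1 is in 13 terms and CCNH in 11, and RARA and TRIB3 are in 10 each, of which 9 lie outside phosphorylation.

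Some members were named together under stress of the endoplasmic reticulum (ER), where secreted proteins fold. Response to endoplasmic reticulum stress named 6 members, namely EIF2AK3, ERN1, MAP3K5, TRIB3, PIK3R1 and CERT1, among its 31 genes. For this term the authors' deposited table gave a fold of 1.91, an unadjusted p of 0.000232 and a Benjamini p of 0.0761. EIF2AK3 (PERK) and ERN1 (IRE1) are sensor kinases in the ER membrane, the first acting on the translation factor eIF2 and the second also cutting RNA. EIF2AK3 (ENSG00000172071; GRCh38 chromosome 2, 88556741 to 88627576, minus strand) and ERN1 (ENSG00000178607; chromosome 17, 64039142 to 64130819, minus strand) were each in 8 terms. The other eIF2 kinases, EIF2AK1, EIF2AK2 and EIF2AK4, were not named, and neither was ERN2, the relative of ERN1.

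ERN1 was also named by IRE1-mediated unfolded protein response, mRNA catabolic process and RNA phosphodiester bond hydrolysis, endonucleolytic. MAP3K5 (ASK1), a stress-activated MAP kinase kinase kinase, was in 9 terms, and TRIB3, a pseudokinase known to respond to ER stress and to bind AKT, was in 10. ERN1, MAP3K5 and TRIB3 were the 3 members in the intrinsic apoptotic signalling term for ER stress (12 genes; fold 1.68, unadjusted p = 0.0809 and Benjamini p = 0.952 in the authors' deposited table). CERT1, a ceramide carrier between ER and Golgi, and EIF2AK3 were both in endoplasmic reticulum organization.

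The promoters of the ER stress sensors are shown because this group held the most members of any term with a Benjamini p under 0.1 outside phosphorylation. In RefSeq's table (GRCh38.p14), 89 of 102 members had an entry. The 250 bases before RefSeq's start were searched on both strands for the ER stress response element, CCAAT followed after any 9 bases by CCACG, and for these ends alone, which overlap it by construction. Capitals mark these matches. EIF2A, a translation initiation factor, is shown beside them because its window was the 1 among the matched members that holds the whole element. It was picked for that match and is not in response to endoplasmic reticulum stress. Its only further term is cell-cell adhesion.
EIF2AK3: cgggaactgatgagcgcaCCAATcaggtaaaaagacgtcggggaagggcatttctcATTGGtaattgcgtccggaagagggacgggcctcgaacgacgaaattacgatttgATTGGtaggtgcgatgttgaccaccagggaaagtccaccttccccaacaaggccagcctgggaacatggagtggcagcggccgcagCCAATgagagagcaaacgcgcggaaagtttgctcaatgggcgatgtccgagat
ERN1: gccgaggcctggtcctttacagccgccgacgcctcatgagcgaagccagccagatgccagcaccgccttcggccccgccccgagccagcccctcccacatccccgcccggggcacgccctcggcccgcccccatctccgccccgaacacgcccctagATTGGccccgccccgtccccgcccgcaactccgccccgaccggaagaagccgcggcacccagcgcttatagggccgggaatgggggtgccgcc
EIF2A: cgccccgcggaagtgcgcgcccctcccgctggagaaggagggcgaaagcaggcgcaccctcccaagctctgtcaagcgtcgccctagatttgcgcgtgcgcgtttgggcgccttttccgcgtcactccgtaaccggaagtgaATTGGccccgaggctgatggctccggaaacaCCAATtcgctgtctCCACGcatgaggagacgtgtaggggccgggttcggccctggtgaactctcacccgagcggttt

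These windows lie at chr2:88627465-88627714 (minus strand), chr17:64130145-64130394 (minus strand) and chr3:150546537-150546786 (plus strand), in the order printed. RefSeq's starts lie downstream of the outermost GENCODE 29 starts, so the ERN1 window lies wholly inside the GENCODE gene and the others overlap theirs in part. The EIF2AK3 window holds 4 CCAAT matches and the ERN1 window 1, with no CCACG match in either. The EIF2A window holds the whole element from 77 to 59 bases before RefSeq's start, a stretch that is also inside the GENCODE gene. The element is in the window of 1.12% of the 89 matched members, which is EIF2A alone, and in 0.0740% of all 35116 promoter windows. A CCAAT is in the window of 48.3% of the matched members and of 32.0% of all windows. A CCACG is in 53.9% of the matched members and 33.5% of all windows. Members were counted by symbol and all windows by entry, and the windows outnumber the 19951 protein-coding genes of GENCODE 29. The shares are therefore not like for like, and nothing is read from their differences. These matches are letters in a window, and no binding or promoter activity was measured.

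The MAP kinase cascades were named at several tiers. For this and every signalling list below, 25.3% of the kinase list and 15.8% of background genes were named. No list was tested against these shares. Of 32 kinases at or above the MAP3K tier, 10 were named (31.2%) and 7 of these are members. The members include MAP3K5, MAP3K9, MAP3K11, MAP4K3, MINK1 and BRAF. The middle tier had 1 of 7 named (14.3%), MAP2K6, and it is no member. Of 14 MAP kinases 4 were named (28.6%), MAPK8 and MAPK9 as members and the p38 kinases MAPK13 and MAPK14 by other terms. Of 11 kinases switched on by MAP kinases 9 were named (81.8%), with MKNK1, MKNK2 and RPS6KA5 as members. The MKNK kinases act on the translation factor eIF4E and RPS6KA5 (MSK1) on histone H3 and CREB1.

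The JNK cascade term named 7 members among its 17 genes: MAP3K5, MAP3K11, MAP4K3, MINK1, MAPK8, MAPK9 and TRIB1. Its fold in the authors' deposited table was 1.61, with an unadjusted p of 0.0482 and a Benjamini p of 0.879. MAPK8 (JNK1) was in 6 terms and MAPK9 (JNK2) in 3, while MAPK10 (JNK3), the neural form, was not named. MAP3K11 and MINK1 shared all of their further terms, JNK cascade and protein autophosphorylation. The p38MAPK cascade term held 6 of its 7 background genes (3.97-fold, unadjusted p = 0.00662, Benjamini p = 0.524 in the authors' deposited table), of which MAP3K5 was the only member. BRAF, a kinase between RAS and the ERK branch, was in 3 terms, among them face development with RARA.

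Cytokine and interferon signalling was represented by the Janus kinases, which stand on the inner side of cytokine receptors. JAK1, JAK2 and TYK2 were members and JAK3, the form of blood cells, was not named. JAK1 and TYK2 were in type I interferon signaling pathway, 1 of the 15 terms with a Benjamini p under 0.05. Of those 15, 5 name no member because the rule took their genes out, and 1 is protein phosphorylation itself. JAK1 and JAK2 were in interferon-gamma-mediated signaling pathway (1.76-fold, unadjusted p = 0.00267, Benjamini p = 0.382 in the authors' deposited table) and in the term for its regulation. JAK2 was in 9 terms and was the 1 member in JAK-STAT cascade. SYK, a kinase of immune receptors, was in 6 terms and FRK, a SRC-related kinase, in 2. Of 28 cytoplasmic tyrosine kinases, 6 were named (21.4%) and 5 of these are members.

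IKBKB, the IKK-beta kinase that releases NF-kB from its inhibitor, was in 8 terms. They included positive regulation of I-kappaB kinase/NF-kappaB signaling, interleukin-1-mediated signaling and response to virus. In the first of these, the other members were PIM2, a growth-promoting serine/threonine kinase, and PLK2. PIM2 was in 7 terms. Of 19 NF-kB and cell death kinases and partners, 5 were named (26.3%), and IKBKB was the only member. The scaffold IKBKG was named by other terms and its partner CHUK was not named.

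Of 26 genes of the PI3K, AKT and mTOR list, which carries growth factor and nutrient signals, 10 were named (38.5%) and 4 are members. The other 6 named genes include MTOR and PIK3C3, which are in protein phosphorylation and were taken out by the rule. PDPK1, the kinase that activates AKT and other AGC kinases, was in 8 terms, and PIK3R1, the p85-alpha regulatory subunit of PI3K, in 7. PDPK1, PIK3R1, TRIB3 and the atypical protein kinase C PRKCI were in cellular response to insulin stimulus (1.56-fold, unadjusted p = 0.0175, Benjamini p = 0.697 in the authors' deposited table). AKT1 and AKT2 were not named. RPS6KB2, an S6 kinase, was in protein phosphorylation alone. PIK3R4, a subunit of the PIK3C3 complex that starts autophagosomes, was in 4 terms.

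AMP-activated protein kinase (AMPK), an energy sensor, was represented by its regulatory subunits. PRKAB1, PRKAB2 and PRKAG1 were members, and the catalytic subunits PRKAA1 and PRKAA2 were not named. The 3 subunits were in macroautophagy, with PIK3R4, and in regulation of signal transduction by p53 class mediator, with CSNK2B and HIPK1. For macroautophagy the authors' deposited table gave 1.89-fold enrichment, an unadjusted p of 0.000305 and a Benjamini p of 0.0941. CAMKK2, an upstream activator of AMPK, was in 3 terms, and MARK2, a related kinase of cell polarity, in 4. PRKAB1 and PRKAB2 shared 3 of 4 further terms (Jaccard index 0.750), the highest overlap of any pair with 3 shared terms, together with DYRK1A and LMTK2.

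Polo-like and cyclin-linked members remained although cell division and cell cycle genes had been taken out. PLK1, a kinase of mitotic entry and spindle assembly, was in 13 terms, the most of any member (ENSG00000166851; GRCh38 chromosome 16, 23677656 to 23690367, plus strand). PLK1 and PKMYT1, the inhibitory kinase of CDK1, were the 2 members in mitotic nuclear division, and with PLK4, the centriole kinase, and CCNH they were the 4 in G2/M transition of mitotic cell cycle. PLK2 was in 9 terms, among them G1/S transition of mitotic cell cycle with ACVR1, ACVR1B, CCNH, PIM2 and PKMYT1. CCNH, the cyclin of the CDK-activating kinase and of the transcription factor TFIIH, was in 11 terms, which also covered capping and RNA polymerase I and II transcription. Its partner MNAT1 was taken out by the rule and its kinase CDK7 was not named.

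Of 52 receptor tyrosine kinases, 7 were named (13.5%, beside 15.8% of background genes), and FGFR1 and the pseudokinase PTK7 were the members. FGFR1 was in 7 terms and PTK7 in 1. Of 12 receptors of the TGF-beta superfamily, 5 were named (41.7%), with the type I receptors ACVR1, ACVR1B and BMPR1A as members. These 3 and FGFR1 were in in utero embryonic development with CERT1 (1.39-fold, unadjusted p = 0.00713, Benjamini p = 0.533 in the authors' deposited table). ACVR1 and BMPR1A were joined by RARA, a retinoic acid receptor in 10 terms, in outflow tract septum morphogenesis.

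**Figure D3:**
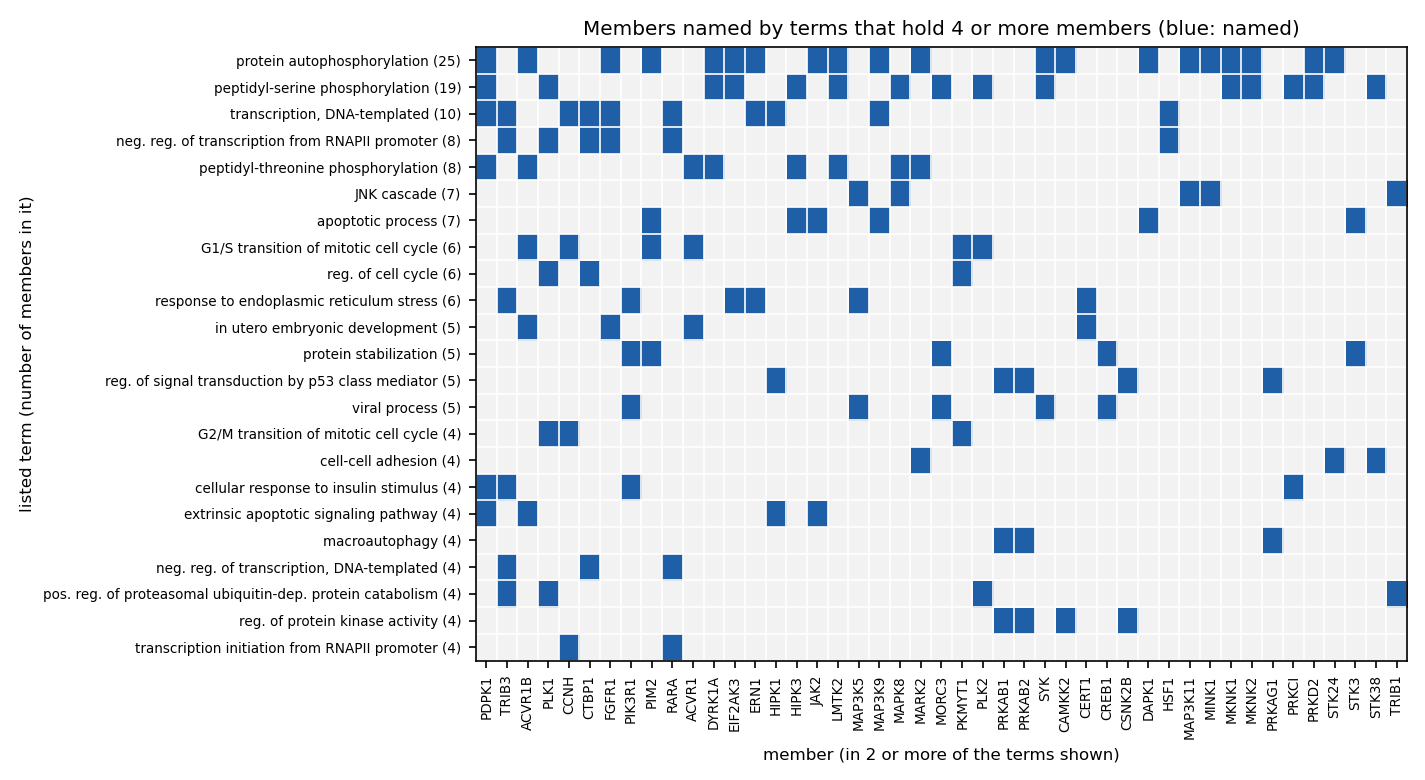
Members (horizontal axis, 45 found in at least 2 of the terms shown) against the 23 listed terms other than protein phosphorylation that name 4 or more members and at least 1 of these 45 (vertical axis, number of members in parentheses); blue marks a named gene. Protein autophosphorylation holds 25 members and peptidyl-serine phosphorylation 19, whereas response to endoplasmic reticulum stress holds 6 and macroautophagy 4.

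The remaining kinases were spread over small families. Protein autophosphorylation named 25 members among its 49 genes (1.32-fold, unadjusted p = 0.0293, Benjamini p = 0.792 in the authors' deposited table), including DAPK1, LMTK2, CLK2, CLK3, STK24, STK25, STK26 and PRKD2. Peptidyl-serine phosphorylation named 19 among 45 (1.67-fold, unadjusted p = 0.000316, Benjamini p = 0.0931 in the authors' deposited table), including DMPK, PRKCH, PRKCI, PRKD2, PRKD3, STK38, STK38L and the splicing and growth kinase DYRK1A. Peptidyl-threonine phosphorylation named 8 among 17 (2.07-fold, unadjusted p = 0.00352, Benjamini p = 0.413 in the authors' deposited table). Among the 16 phosphorylation and cascade terms of the authors' deposited table, only protein phosphorylation had a Benjamini p under 0.05, while the unadjusted p was under 0.05 in 11. Over all 314 terms, 4.78% had a Benjamini p under 0.05 and 68.2% an unadjusted p under 0.05.

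Kinases of messenger RNA splicing and of the DYRK and HIPK families had 8 of 17 genes named (47.1%). Of these, CLK2, CLK3, SRPK2, DYRK1A, HIPK1 and HIPK3 are members. CLK and SRPK kinases phosphorylate splicing factors rich in serine and arginine, and SRPK2 was in RNA splicing. For RNA splicing the authors' deposited table gave a fold of 1.255, an unadjusted p of 0.0755 and a Benjamini p of 0.9455. HIPK1 was in extrinsic apoptotic signaling pathway with ACVR1B, JAK2 and PDPK1. Death-associated kinase DAPK1 and STK3 (MST2), a kinase of the Hippo pathway that limits growth, were among the 7 members in apoptotic process. The NDR kinases STK38 and STK38L, relatives of LATS1, were both members. Of 12 Hippo and NDR genes, 5 were named (41.7%). PRKACB, a catalytic subunit of protein kinase A, was in neural tube closure with RARA. Its fold in the authors' deposited table was 1.44, with an unadjusted p of 0.0552 and a Benjamini p of 0.903. PRKCH and PRKCI were in positive regulation of glial cell proliferation. That term had a fold of 2.78, an unadjusted p of 0.0444 and a Benjamini p of 0.862 in the authors' deposited table.

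Members were also set against 22 small families, chosen after the names were seen, so nothing is read from their counts. Over the kinase list, 25.3% of genes were named and 76 of 541 were members. Every gene was a member in 5 of the families. All 3 germinal centre kinases of subgroup III (STK24, STK25 and STK26), both NDR kinases, both MKNK kinases, both LIM kinases (LIMK1 and LIMK2, which phosphorylate the actin-severing protein cofilin) and both AMPK beta subunits were members. Janus kinases had 3 of 4 genes among the members, polo-like kinases 3 of 5, and type I receptors of the TGF-beta superfamily 3 of 7. HIPK kinases and mixed lineage kinases, the MAP3K9 and MAP3K11 group, had 2 of 4 each, AMPK gamma subunits 1 of 3 and AMPK alpha subunits 0 of 2. Phosphorylase kinase, which drives glycogen breakdown, had PHKA1, PHKA2 and PHKG2 of its 5 genes. The FAST kinase domain family, known for mitochondrial RNA, had FASTK, FASTKD3, FASTKD5 and TBRG4 of 6. Paralogs share sequence, and how reads common to them, or to human and mouse genes, were counted is not stated in the labels or headers.

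The transcription members shared terms with each other. HSF1, the heat shock factor, and CREB1, a target of RPS6KA5 and protein kinase A, were both in negative regulation of neuron death. That term had a fold of 1.97, an unadjusted p of 0.00641 and a Benjamini p of 0.519 in the authors' deposited table. CTBP1, RARA and TRIB3 were in negative regulation of transcription, DNA-templated, with RPS6KA5. MAML1 was in transcription initiation from RNA polymerase II promoter with CCNH and RARA. MORC3, a nuclear body protein, was in protein stabilization with CREB1, PIK3R1, PIM2 and STK3, and FNIP2, a partner of the tumour suppressor folliculin, was in 3 terms.

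Other members were named under terms for metabolism, mineralization, transport, catalytic activity, neuron projections or the cell cycle. BCKDK, which inhibits branched-chain amino acid breakdown, was in branched-chain amino acid catabolic process. COQ8A, a kinase-like protein of coenzyme Q synthesis, was in ubiquinone biosynthetic process, and FAM20C, the kinase of secreted proteins, in enamel mineralization. SNX15, a sorting nexin, was in intracellular protein transport and NRBP1 in ER to Golgi vesicle-mediated transport. BMP2K was in regulation of catalytic activity with DMPK. CDK16 and APP, the amyloid precursor protein, were in neuron projection development, and MOK and CDK16 in regulation of cell cycle. For neuron projection development the authors' deposited table gave a fold of 1.575, an unadjusted p of 0.00538 and a Benjamini p of 0.503.

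**Figure D4:**
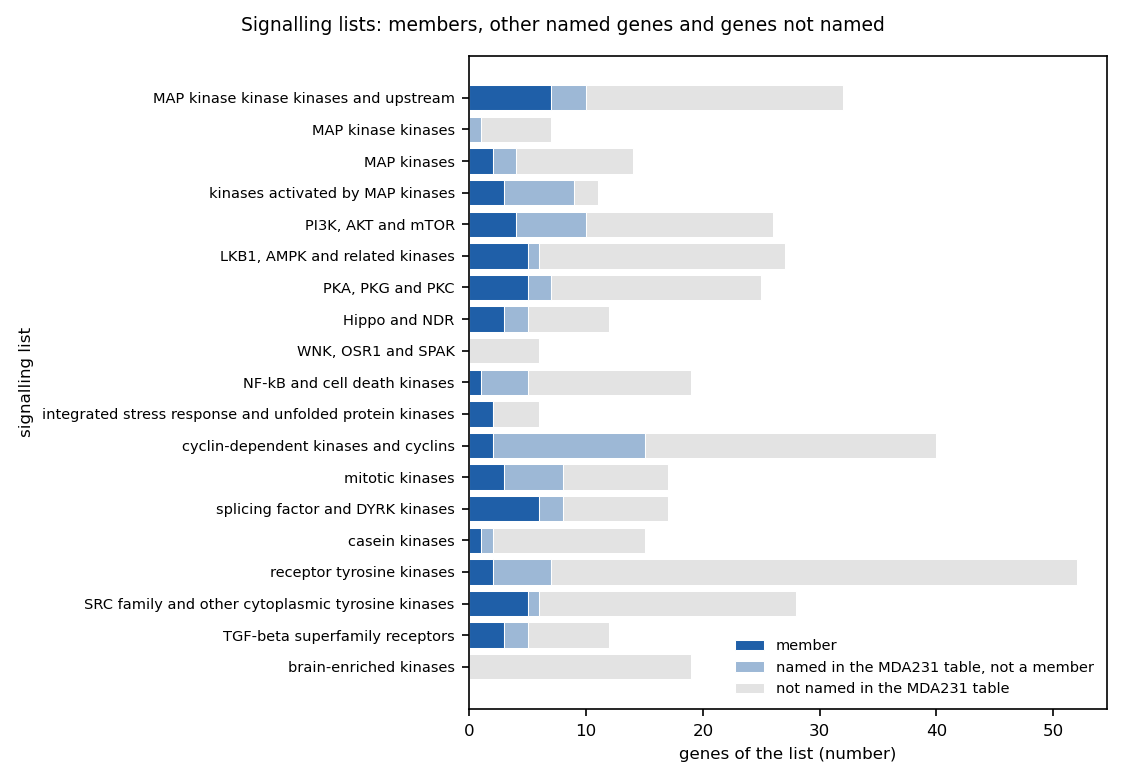
Number of genes (horizontal axis) in each of 19 signalling lists (vertical axis), split into members, genes named elsewhere in the MDA231 table and genes the table does not name. Kinases activated by MAP kinases had 9 of 11 genes named, and the lists of brain-enriched kinases and of WNK, OSR1 and SPAK had 0 named.

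Lists with few or no named genes are given by their counts. Casein kinases and their relatives had 2 of 15 named (13.3%), of which CSNK2B, the regulatory subunit of casein kinase 2, was a member. The WNK, OSR1 and SPAK list had 0 of 6. A list of 19 kinases and kinase regulators enriched in brain, taken as markers of host RNA (CAMK2A, CAMK2B, DCLK1, NTRK2 and others), had 0 named, beside 15.8% of background genes. Their absence from the listed terms does not give their levels. The host is mouse and the members carry human gene identifiers, so a count of 0 cannot tell whether host RNA was present. The part of host RNA in these lists was not tested.

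In the genome, members lay on every chromosome but 18 and Y, with 9 each on chromosomes 1 and 5 and 7 on X. Chromosome 5 held 8.82% of members and 3.70% of all named genes, chromosome 1 8.82% and 10.9%, and X 6.86% and 4.38%. Member genes had a median span of 65.6 kb from first to last exon, against 35.7 kb for all named MDA231 genes and 27.1 kb for all protein-coding genes in GENCODE 29. Only 5 pairs of members lay within 500 kb of each other. Among them were PDPK1 and PKMYT1, PHKG2 and BCKDK (both pairs on chromosome 16), MAML1 and MAPK9, and CSNK2B and STK19. These figures are descriptions, with no test.

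The MDA231 and HCC1954 tables shared none of these genes. The HCC1954 table named 30 genes, or 0.179% of the background, while 0.393% of the background was in the HCC1954 list, and 0 of the 102 members were among them. AXL was the 1 gene of the kinase list named there. HCC1954 had 3 terms on phosphorylation or protein kinase B signaling, built on AXL, GAS6, TGFB1 and BMP7. Their Benjamini p-values in the authors' deposited table ran between 0.8145 and 0.994. The HCC1954 list held 66 genes with a process and the MDA231 list 3626, so the tables differ in size before any gene is compared, and no difference between the lines was tested.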

How the data were processed

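The labels give 4 IP and 4 input libraries for each line, made with a SMARTer cDNA kit. The tools STAR and HTSeq and the builds GRCh38 and GRCm38 are listed, without versions, per the submitters' processing notes. How genes entered each list, and which enrichment tool was run, is not given in the sources used here. A row of each deposited table holds a term, its genes and their number, an unadjusted and a Benjamini p-value and a fold enrichment, per the file headers. The deposited fold is the ratio of the listed to the background share of genes, and it was recomputed from the counts as a check.

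Members were taken from the MDA231 table by the stated rule. Ensembl identifiers were matched to symbols, which succeeded for all 102, and to GENCODE 29 on GRCh38. Kinase groups (11) and signalling lists (20) were written from textbook families. Members and lists were chosen with earlier results of these data known. A few members and 1 list are counted but not reported here by name. Of the others, the 20 in most terms and up to 5 per list were to be described in full, and the small families, the roles of members that are not kinases and the promoters shown were chosen after the names were seen. Phosphorylation and cascade terms were those named for phosphorylation, kinases, MAPK, JNK or JAK-STAT. No test was run, because the design needs values per library. The counting was tested on simulated data. Python 3.11.15, pandas 2.3.3 and SciPy 1.17.1 were used.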

Additional observations from a re-analysis of the deposited data

How the results depend on the processing

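All the counts below are of genes, so no spread between libraries is behind them. The number of members was 129 when no genes were taken out for the 5 other rows, and 100 when genes of mitotic nuclear division and DNA replication were taken out as well. Members in a further term numbered 86, the same with terms of at least 10 background genes or with overlapping terms collapsed, 80 with an unadjusted p under 0.05 and 75 outside phosphorylation and cascade terms, a choice made after seeing the data. With a Benjamini p under 0.05 the number was 11. The shares of all named genes under these p limits were not counted. Of 314 terms 15 pass that threshold, of which 5 are rows whose genes the rule took out and 1 is protein phosphorylation itself. The recomputed fold was 1.36 under both alternatives. Of the 20 signalling lists, the count of named genes moved by over 1.5 times in 2 when genes in at least 2 terms were counted, in 0 with an unadjusted p under 0.05 and in 3 outside phosphorylation and cascade terms. The definition of kinases by protein motif was not run. No paired analysis was possible because the tables hold no value per library, and leaving out single libraries could not be done for the same reason. What depth limits is not known here.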
